A study of Mus musculus with 9 samples.

Results

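Collagens and other extracellular matrix proteins form the scaffold that fills a healing skin wound. A set of 40 such genes was followed in RNA from macrophages sorted out of mouse skin wounds. The members were taken by symbol from the deposited count table, which lists 18303 genes, and all 40 were found there. They comprise 6 fibril-forming collagen chains, 6 basement membrane genes, 7 other collagen chains, 5 genes of collagen maturation and cross-linking, 7 adhesive and matricellular glycoproteins, 3 small leucine-rich proteoglycans, 5 genes of elastic fibres and microfibrils, and the protease gene Mmp2.

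The libraries came from wild-type mice of the C57BL/6J background. Skin wound tissue was taken 4 days (4 libraries) or 14 days (5 libraries) post injury, without treatment, and live cells positive for CD45, CD11b and F4/80 were sorted and used directly for RNA-seq. CD115 was also stained, and 7-AAD marked dead cells. The sex and age of the mice, and whether a library pools animals, are not given in the sources used here, so p-values measure the spread between these libraries, which may be technical.

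Fibrillar collagens are made as procollagens that fold and are hydroxylated in the endoplasmic reticulum, are trimmed outside the cell, assemble into fibrils and are cross-linked by lysyl oxidases. In skin wounds the matrix is laid down mostly by fibroblasts and myofibroblasts, first as a provisional matrix rich in fibronectin and tenascins and later as collagen fibrils and, last, elastic fibres. Macrophages take up and degrade matrix and are known to express Fn1 themselves, while most of the fibrillar collagens, decorin and lumican are usually taken as fibroblast products.

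Levels are given as counts-per-million (CPM), scaled between libraries by trimmed mean of M-values (TMM). Log2 fold changes are of day 14 against day 4 and are given ± SE. Values in a sentence follow replicates 1 to 4 of day 4 and replicates 1 to 5 of day 14. Library totals ran from 17982633 to 57809918 counts, with a count for 14673 to 16373 genes. The counts of day 14 replicate 5 stop within the gene Aplp2 on chromosome 9, and 1504 genes from that point on, or on chromosomes X and Y, carry no usable value there. The members Col12a1, Loxl1 and Bgn lie among them and were measured in 4 libraries of each day. The genes of the sort markers were abundant: Ptprc, which encodes CD45, went from 1166 ± 97.4 to 1525 ± 82.7 CPM, Itgam, which encodes CD11b, from 1752 ± 176 to 1290 ± 78.3 CPM, and Emr1, which encodes F4/80, from 1120 ± 59.1 to 1455 ± 120 CPM (SD, n = 4 and 5). The fibroblast receptor gene Pdgfra was detected too, with a mean of 47.9 ± 20.7 CPM in day 4 libraries that fell to 17.5 ± 3.34 CPM by day 14. Not all fibroblast markers fell: Dpt had means of 98.1 ± 20.1 and 117 ± 8.69 CPM and was not called.

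Most of the matrix genes were lower in day 14 than in day 4 macrophage libraries. By edgeR's quasi-likelihood test with Benjamini-Hochberg adjustment over 13322 genes, 25 of the 40 members were lower at day 14, 2 were higher (Eln and Mfap4) and 13 did not pass an adjusted p of 0.05. Over all genes tested, 14.9% were lower, 16.1% higher and 31.0% differed in either direction. All 40 members passed the filter on low counts. Their median log2 fold change was -0.94, beside 0.01 over all genes. At least 2-fold lower were 18 members, and at least 2-fold higher were 2, while 4.23% and 4.91% of all genes were called with changes of that size. The libraries of the 2 days did not overlap for 23 members that were lower and 2 that were higher, beside 12.7% and 13.0% of all genes. RNA from bulk samples cannot tell fewer cells of a type from less RNA per cell. Of 25 fibroblast markers outside the set, 14 were lower at day 14, 1 was higher and 10 did not pass. When the level of those markers was put in the model, 5 of the 40 members were called lower and 4 higher, beside 2.33% and 3.51% of all genes in that model. The mean level of the markers did not overlap between the days, so that model cannot tell its part from that of the day. The marker values are given after the members.

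**Figure D1:**
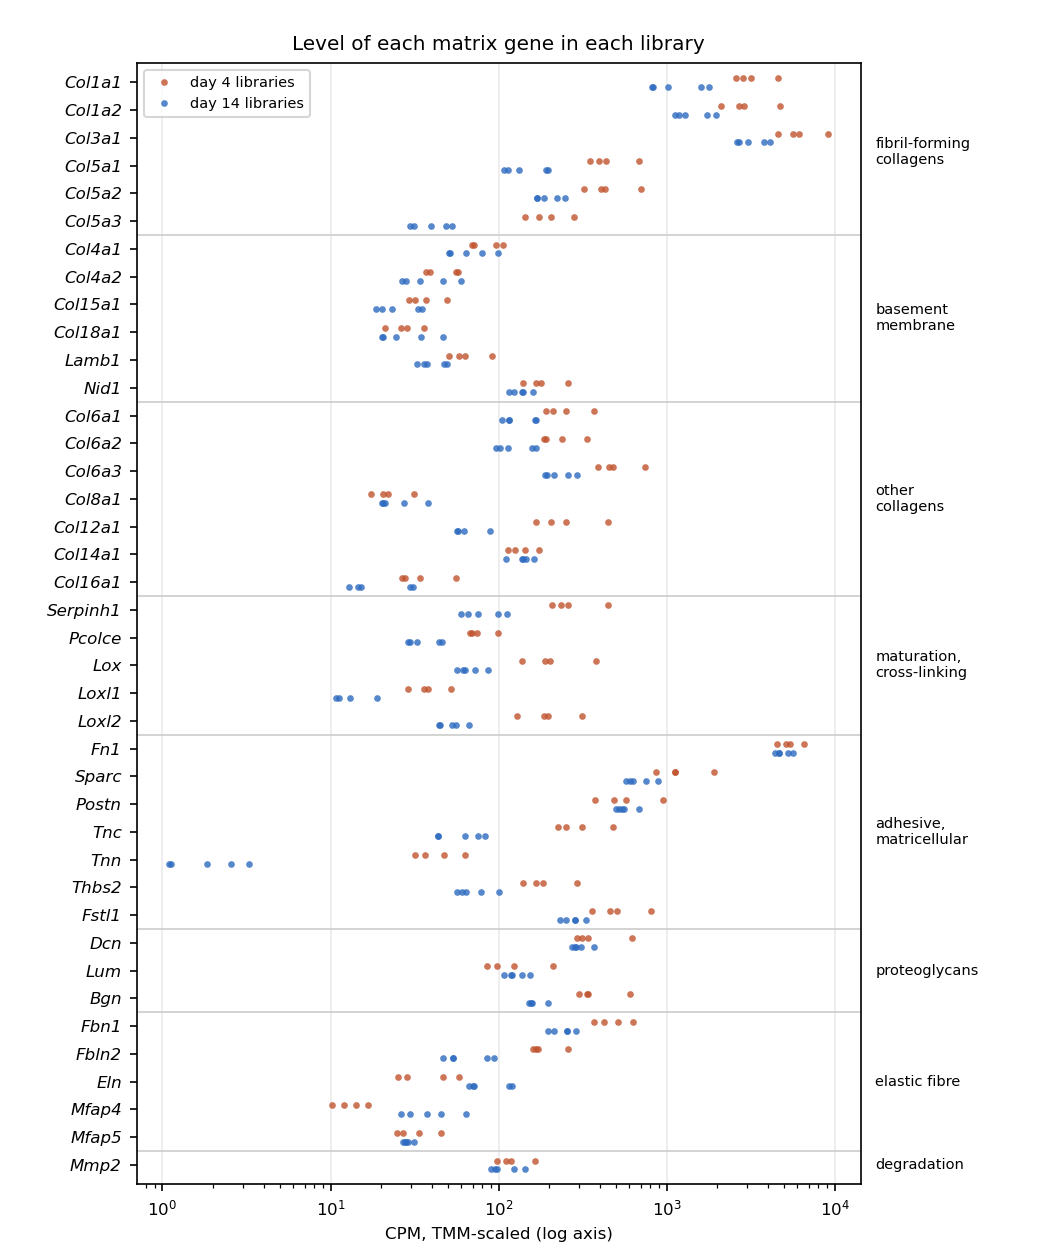
Level of each of the 40 matrix genes in each library, in CPM on a log axis, with day 4 in red and day 14 in blue, grouped by role. Col1a1 lies between 2602 and 4608 CPM in the day 4 libraries and between 817 and 1779 CPM in those of day 14, Fn1 overlaps between the days, and Eln and Mfap4 lie higher at day 14.

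Promoter windows of RefSeq (build GRCm38.p6), from 250 bases before to 50 after a transcript start, were at hand for 26 of the 40 members, in 30 windows. The bases before the outermost annotated start are shown for the collagen genes Col1a2 and Col3a1 and the matricellular genes Tnc and Thbs2, which were lower at day 14, and for Postn, which was not called. Each reads 5′ to 3′ on the gene's strand, and capitals mark the CCAAT box and TATAAA box letters on either strand (ATTGG and TTTATA on the other).
Col1a2, chr6:4505368-4505617, plus strand: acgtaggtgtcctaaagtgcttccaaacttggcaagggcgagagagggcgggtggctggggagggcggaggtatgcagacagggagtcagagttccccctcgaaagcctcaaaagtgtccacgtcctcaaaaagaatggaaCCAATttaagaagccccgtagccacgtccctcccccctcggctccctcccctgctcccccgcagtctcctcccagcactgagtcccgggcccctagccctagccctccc
Col3a1, chr1:45311288-45311537, plus strand: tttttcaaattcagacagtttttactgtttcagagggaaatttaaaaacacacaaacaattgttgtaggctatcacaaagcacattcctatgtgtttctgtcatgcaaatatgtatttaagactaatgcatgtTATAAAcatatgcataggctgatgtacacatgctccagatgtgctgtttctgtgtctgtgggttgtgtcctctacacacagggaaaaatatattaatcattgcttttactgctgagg
Tnc, chr4:64047016-64047265, minus strand: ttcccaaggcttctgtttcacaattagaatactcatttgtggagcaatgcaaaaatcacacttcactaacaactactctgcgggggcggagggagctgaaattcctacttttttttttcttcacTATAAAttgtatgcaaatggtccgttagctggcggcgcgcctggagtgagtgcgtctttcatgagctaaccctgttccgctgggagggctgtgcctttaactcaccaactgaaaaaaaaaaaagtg
Thbs2, chr17:14694263-14694512, minus strand: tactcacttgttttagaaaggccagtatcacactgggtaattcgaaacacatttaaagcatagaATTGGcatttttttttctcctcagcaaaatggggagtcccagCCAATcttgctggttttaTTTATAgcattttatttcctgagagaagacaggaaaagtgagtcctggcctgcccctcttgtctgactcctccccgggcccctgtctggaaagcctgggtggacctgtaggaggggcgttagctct
Postn, chr3:54359017-54359266, plus strand: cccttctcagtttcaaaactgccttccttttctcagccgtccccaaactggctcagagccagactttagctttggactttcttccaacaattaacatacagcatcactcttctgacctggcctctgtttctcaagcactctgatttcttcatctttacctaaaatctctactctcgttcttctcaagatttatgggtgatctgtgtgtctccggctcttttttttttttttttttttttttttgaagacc

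The Col3a1 stretch holds TATAAA 117 bases before the start and that of Tnc 126 bases before it. CCAAT letters stand 109 bases before the start of Col1a2, and the Thbs2 stretch holds both motifs. The Postn stretch holds neither, while the rest of its window has ATTGG at base 25 counted from the start, and a second Postn window, at an inner start, holds TATAAA 26 bases before that start. Across whole windows, TATAAA was present in 4 of 26 member genes (15.4%) and in 8.98% of 9946 tested genes with a window. For CCAAT the shares were 42.3% and 42.9%, and for GGGCGG, the core letters of a GC box, 69.2% and 67.3%. The letters CAGAC, the Smad box, were present in 57.7% and 52.2%, and TGANTCA, which covers the AP-1 site, in 3.85% (the gene Col6a1) and 6.6%. The stretches shown are examples and do not stand for the called and uncalled members. The windows of Serpinh1 and Sparc, also lower at day 14, hold neither TATAAA nor CCAAT, while that of Col4a2, not called, holds CCAAT. By call, TATAAA was present in 3 of 19 lower members and 1 of 7 others, and CCAAT in 6 of 19 and 5 of 7. Both strands were searched, the motifs can overlap each other, and a match is a description of letters only.

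All 6 chains of fibril-forming collagens were lower at day 14, with a median log2 fold change of -1.34. The counts in this and the following groups of members stand beside 14.9% lower and 16.1% higher over all genes tested. Col1a1 and Col1a2 encode the chains of type I collagen, the main fibril of dermis and scar. Col1a1 (chr11:94936224-94953042) measured 2840, 4608, 3161 and 2602 CPM at day 4 and 817, 833, 1608, 1017 and 1779 CPM at day 14. Its mean fell 2.73-fold, from 3303 ± 900 (SD, n = 4) to 1211 ± 452 CPM (SD, n = 5) (log2 fold change -1.45 ± 0.26, adjusted p = 0.00164). The 4 day 4 libraries all lay above the 5 of day 14, with day 4 replicate 2 the highest and day 14 replicates 1 and 2 the lowest. Col1a2 measured 2702, 4696, 2888 and 2109 CPM at day 4 and 1120, 1188, 1742, 1291 and 1968 CPM at day 14 (log2 fold change -1.08 ± 0.23, adjusted p = 0.00445). Its 9 libraries stood in the same order as for Col1a1 and did not overlap between days. Col3a1 encodes type III collagen, which is prominent in young granulation tissue. Its level was 5608, 9123, 6164 and 4598 CPM at day 4 and 2697, 2613, 3795, 3049 and 4103 CPM at day 14. Although it fell from 6373 ± 1944 (SD, n = 4) to 3251 ± 666 CPM (SD, n = 5), it had the highest level of the collagens on both days, per length too (log2 fold change -0.97 ± 0.19, adjusted p = 0.00275). Again no day 14 library reached the lowest of day 4.

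Type V collagen copolymerises with type I and limits fibril diameter. Its chain gene Col5a1 measured 395, 688, 437 and 350 CPM at day 4 and 113, 108, 196, 132 and 191 CPM at day 14 (log2 fold change -1.66 ± 0.23, adjusted p = 0.000349). Col5a2, which lies 24624 bases from Col3a1 on chromosome 1, measured 405, 699, 431 and 324 CPM at day 4 and 169, 169, 223, 186 and 249 CPM at day 14 (log2 fold change -1.22 ± 0.20, adjusted p = 0.000793). For both genes the days were separate, and replicates 3 and 5 were the highest of day 14. The third chain gene, Col5a3, showed 174, 282, 206 and 144 CPM at day 4 and 31.3, 29.7, 52.8, 39.8 and 48.9 CPM at day 14. That is a 4.98-fold lower level (log2 fold change -2.32 ± 0.22, adjusted p = 2.22e-05), the strongest fall among the fibrillar chains, and it remained lower with the fibroblast marker level in the model (log2 fold change -1.38, adjusted p = 0.0014).

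The genes of basement membranes, the sheets under epithelia and around vessels, differed less. Of these, 2 of 6 were lower, with a median log2 fold change of -0.39, beside 14.9% lower and a median of 0.01 over all genes. Lamb1, a laminin chain gene, measured 57.8, 91.9, 62.7 and 50.6 CPM at day 4 and 35.9, 32.7, 49, 37.5 and 47.6 CPM at day 14 (log2 fold change -0.70 ± 0.17, adjusted p = 0.00928). All of its day 14 libraries lay below those of day 4. Nid1, which encodes nidogen, a link between laminin and type IV collagen, measured 166, 259, 179 and 140 CPM at day 4 and 124, 115, 137, 139 and 160 CPM at day 14 (log2 fold change -0.46 ± 0.16, adjusted p = 0.0423). Its days overlapped, and the call was lost in 9 of 21 alternative analyses, among them leaving out any of 6 single libraries: day 4 replicates 2 and 3 and day 14 replicates 1, 2, 3 and 4 (adjusted p from 0.0527 to 0.107).

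Col4a1 and Col4a2 encode the chains of the main type IV collagen network. Col4a1 measured 69.3, 106, 71.6 and 96.2 CPM at day 4 and 63.8, 51.5, 99.5, 50.7 and 79.4 CPM at day 14 (log2 fold change -0.31 ± 0.20, adjusted p = 0.262). Col4a2 measured 36.8, 57.2, 39.2 and 55.8 CPM at day 4 and 34.2, 26.5, 60, 28.1 and 46.8 CPM at day 14 (log2 fold change -0.27 ± 0.24, adjusted p = 0.41). In both genes the highest library of all was day 4 replicate 2 or day 14 replicate 3, and the days overlapped. They are neighbours on chromosome 8 that are read in opposite directions. Annotated transcript starts of Col4a1 and Col4a2 lie 22 bases apart, counting both, so that the bases between them belong to transcripts of both.
Col4a1 and Col4a2 overlap, chr8:11312805-11312826, plus strand: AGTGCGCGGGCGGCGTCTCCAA

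Libraries were made with a kit that does not mark strand, so reads there cannot be assigned to one or the other gene by strand. Col15a1, which encodes a basement membrane collagen with a heparan or chondroitin sulfate side chain, measured 31.6, 49.5, 29.2 and 37.2 CPM at day 4 and 18.7, 20.3, 35.2, 23.1 and 33.2 CPM at day 14 (log2 fold change -0.50 ± 0.21, adjusted p = 0.0912). Without day 14 replicate 3, Col4a1 (log2 fold change -0.49, adjusted p = 0.0466) and Col15a1 (-0.64, adjusted p = 0.0302) were called lower. Col18a1, the source of the fragment endostatin, measured 21.2, 35.9, 26.1 and 28.4 CPM at day 4 and 24.6, 20.4, 46.7, 20.2 and 34.5 CPM at day 14 (log2 fold change 0.07 ± 0.25, adjusted p = 0.858). Its libraries were mixed between the days, and day 14 replicate 3 was the highest of the 9.

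Among the 7 remaining collagen chains, 4 were lower and 3 did not pass (median log2 fold change -0.89). Type VI collagen forms beaded microfibrils that link cells to the matrix, and its 3 chain genes were all lower. Col6a1 measured 210, 368, 252 and 191 CPM at day 4 and 105, 116, 164, 116 and 166 CPM at day 14 (log2 fold change -0.94 ± 0.20, adjusted p = 0.00447). Col6a2, on chromosome 10 beside Col6a1 with 85161 bases between them, measured 191, 335, 237 and 185 CPM at day 4 and 95.9, 102, 159, 113 and 168 CPM at day 14 (log2 fold change -0.89 ± 0.21, adjusted p = 0.00782). Col6a3 measured 451, 747, 476 and 390 CPM at day 4 and 188, 193, 257, 215 and 291 CPM at day 14 (log2 fold change -1.17 ± 0.19, adjusted p = 0.000633). In each of the 3 genes day 4 replicate 2 was the highest library and the days did not overlap. Col12a1, a collagen that sits on the surface of fibrils, measured 253, 449, 206 and 167 CPM at day 4 and 56.7, 57.6, 89 and 62.3 CPM at day 14. Its level was 4.05-fold lower at day 14 (log2 fold change -2.02 ± 0.29, adjusted p = 0.000718), and the 4 libraries of each day were separate.

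Col14a1, another fibril-associated collagen, measured 125, 174, 144 and 114 CPM at day 4 and 138, 110, 145, 139 and 162 CPM at day 14. The days overlapped almost entirely (log2 fold change -0.01 ± 0.13, adjusted p = 0.977). Col8a1, a network-forming collagen known from vessel walls, measured 20.4, 31.3, 22 and 17.3 CPM at day 4 and 20.2, 20.5, 27.4, 21.1 and 37.9 CPM at day 14 (log2 fold change 0.16 ± 0.21, adjusted p = 0.595), and its highest libraries were replicate 2 at day 4 and replicate 5 at day 14. Col16a1, a further fibril-associated collagen, measured 26.5, 55.8, 34.2 and 27.7 CPM at day 4 and 12.8, 14.5, 30.8, 15.1 and 29.5 CPM at day 14 (log2 fold change -0.82 ± 0.32, adjusted p = 0.0733). Day 14 replicates 3 and 5 lay within the day 4 range and the other 3 below it. Without replicate 3 of day 14 the log2 fold change of Col16a1 was -1.02 (adjusted p = 0.028), and without replicate 5 it was -0.98 (adjusted p = 0.0434).

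All 5 genes of collagen maturation and cross-linking were lower at day 14, with a median log2 fold change of -1.74. Serpinh1 encodes HSP47, the collagen chaperone of the endoplasmic reticulum. It measured 235, 447, 259 and 209 CPM at day 4 and 59.9, 65.9, 112, 75.6 and 99.4 CPM at day 14, a 3.49-fold difference (log2 fold change -1.80 ± 0.24, adjusted p = 0.000287). Every day 14 library was below every day 4 library. Pcolce encodes an enhancer of the enzyme that trims the procollagen end. It measured 67.9, 99.8, 69.3 and 74.8 CPM at day 4 and 32.8, 28.7, 44.1, 29.9 and 46.2 CPM at day 14 (log2 fold change -1.10 ± 0.16, adjusted p = 0.000374), again without overlap.

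The lysyl oxidases Lox, Loxl1 and Loxl2 oxidise lysines of collagen and elastin so that cross-links can form. Lox measured 201, 382, 190 and 138 CPM at day 4 and 61.8, 56.8, 63.1, 72.4 and 87 CPM at day 14 (log2 fold change -1.74 ± 0.25, adjusted p = 0.000508). Loxl1, which acts on elastin in particular, measured 29, 52.3, 35.8 and 38 CPM at day 4 and 11.3, 10.8, 19 and 13.1 CPM at day 14 (log2 fold change -1.52 ± 0.21, adjusted p = 0.000355). Loxl2 measured 187, 315, 198 and 128 CPM at day 4 and 44.7, 44.1, 55.6, 52.8 and 66.7 CPM at day 14, 3.92-fold lower at day 14 (log2 fold change -1.97 ± 0.22, adjusted p = 7.26e-05). The days were separate for all 3 oxidases, and day 4 replicate 2 stood above the rest of its day in each.

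The adhesive and matricellular group held the largest fall of the set, in Tnn, and it held Fn1, the gene with the highest CPM of the group, which was not called. Of its 7 genes, 5 were lower and 2 did not pass (median log2 fold change -0.94). Tnn (chr1:160085029-160153692) encodes tenascin W, a glycoprotein found where tissue is remodelled. It measured 47.6, 63, 36.7 and 31.9 CPM at day 4 and 1.1, 1.84, 2.54, 1.12 and 3.26 CPM at day 14. The mean dropped from 44.8 ± 13.8 (SD, n = 4) to 1.97 ± 0.932 CPM (SD, n = 5), which is 23.4-fold (log2 fold change -4.55 ± 0.31, adjusted p = 2.64e-06). The lowest day 4 library was far above the highest of day 14. Tnc, tenascin C, is a hallmark of the early wound matrix. It measured 312, 477, 250 and 227 CPM at day 4 and 43.7, 43.8, 83, 63.5 and 75.8 CPM at day 14, 5.11-fold lower (log2 fold change -2.35 ± 0.26, adjusted p = 7.12e-05). The days were again far apart. Both tenascins remained lower with the fibroblast marker level in the model, Tnn by a log2 fold change of -3.52 (adjusted p = 0.000192) and Tnc by -1.32 (adjusted p = 0.00683). That model cannot tell the part of the markers from that of the day.

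Thbs2, a thrombospondin that restrains vessel growth, measured 168, 291, 184 and 139 CPM at day 4 and 56.7, 60.5, 78.3, 63.7 and 101 CPM at day 14 (log2 fold change -1.44 ± 0.22, adjusted p = 0.000619). Fstl1, a secreted SPARC-family glycoprotein, measured 461, 807, 508 and 357 CPM at day 4 and 253, 233, 284, 285 and 331 CPM at day 14 (log2 fold change -0.94 ± 0.20, adjusted p = 0.00349). For these 2 genes all day 4 values were above all day 14 values. Sparc encodes osteonectin, a collagen-binding protein. It measured 1118, 1925, 1127 and 866 CPM at day 4 and 571, 629, 752, 604 and 888 CPM at day 14 (log2 fold change -0.87 ± 0.21, adjusted p = 0.00804), and only day 14 replicate 5 reached the lowest day 4 library.

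Fn1 (chr1:71585473-71653280) encodes fibronectin, which links cells to collagen and fibrin. It measured 6519, 4540, 5427 and 5153 CPM at day 4 and 4629, 4408, 4689, 5615 and 5273 CPM at day 14. The means were 5410 ± 827 CPM (SD, n = 4) and 4923 ± 502 CPM (SD, n = 5), and the days overlapped (log2 fold change -0.14 ± 0.12, adjusted p = 0.396). Day 4 replicate 2, the highest library of its day for 38 of the 40 members, was the lowest of its day for Fn1. Fn1 was not called in any of the 21 alternative analyses, where its log2 fold change ran from -0.28 to -0.04. Postn encodes periostin, a product of fibroblasts in healing dermis. It measured 488, 948, 574 and 374 CPM at day 4 and 501, 517, 554, 543 and 688 CPM at day 14 (log2 fold change -0.09 ± 0.22, adjusted p = 0.79). Day 4 libraries of Postn were spread 2.53-fold and enclosed all those of day 14. With the fibroblast marker level in the model it was called higher at day 14 (log2 fold change 0.91, adjusted p = 0.0261).

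Small leucine-rich proteoglycans bind collagen fibrils and regulate their spacing. Dcn, decorin, measured 314, 624, 341 and 294 CPM at day 4 and 275, 287, 283, 311 and 368 CPM at day 14 (log2 fold change -0.37 ± 0.20, adjusted p = 0.177). Lum, lumican, lies 47337 bases from Dcn on chromosome 10 and measured 97.4, 211, 124 and 85.6 CPM at day 4 and 118, 120, 107, 137 and 153 CPM at day 14 (log2 fold change -0.03 ± 0.23, adjusted p = 0.934). Apart from the high day 4 replicate 2, the libraries of both genes were close together across days. Bgn, biglycan, measured 335, 606, 339 and 302 CPM at day 4 and 151, 158, 196 and 155 CPM at day 14 (log2 fold change -1.26 ± 0.21, adjusted p = 0.000971). It was the only gene of the 3 that was called, and its days were separate.

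Elastic fibres consist of an elastin core on a scaffold of fibrillin microfibrils. Of the 5 genes of this group 2 were lower, 2 were higher and 1 did not pass (median log2 fold change -0.20), beside 14.9% lower and 16.1% higher over all genes. Fbn1, fibrillin, measured 423, 632, 514 and 369 CPM at day 4 and 214, 198, 254, 254 and 290 CPM at day 14 (log2 fold change -1.0 ± 0.16, adjusted p = 0.000521). Fbln2, fibulin, which binds both fibrillin and basement membranes, measured 172, 257, 167 and 160 CPM at day 4 and 53.4, 46.7, 94.5, 53.2 and 85.5 CPM at day 14 (log2 fold change -1.51 ± 0.22, adjusted p = 0.000513). Both were lower at day 14 without overlap. Eln (chr5:134702595-134747368), elastin itself, measured 25.3, 28.4, 46.9 and 58.4 CPM at day 4 and 71.4, 70.1, 120, 67.1 and 115 CPM at day 14. Its mean rose from 39.7 ± 15.7 (SD, n = 4) to 88.8 ± 26.4 CPM (SD, n = 5) (log2 fold change 1.15 ± 0.28, adjusted p = 0.0111). All 5 day 14 libraries were above all 4 of day 4, where replicates 1 and 2 were the lowest. Mfap4 (chr11:61485431-61488708), a microfibril-associated glycoprotein, measured 10.2, 16.6, 14.1 and 12 CPM at day 4 and 26.3, 37.6, 45.2, 29.8 and 63.8 CPM at day 14. The rise was 3.06-fold, from 13.2 ± 2.74 (SD, n = 4) to 40.5 ± 14.9 CPM (SD, n = 5) (log2 fold change 1.61 ± 0.25, adjusted p = 0.000602), also without overlap. Mfap5, a small microfibril glycoprotein, measured 27, 45.7, 33.6 and 25 CPM at day 4 and 27.6, 28.3, 28.9, 26.8 and 31.4 CPM at day 14 (log2 fold change -0.20 ± 0.15, adjusted p = 0.344), and its day 14 libraries lay close together within the day 4 range. With the fibroblast marker level in the model, Mfap4 was still called higher (log2 fold change 2.49, adjusted p = 0.000378), while Eln had a log2 fold change of 1.25 with an SE of 0.50 and was not called (adjusted p = 0.199).

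Mmp2, gelatinase A, cleaves denatured collagen and type IV collagen and is mostly a fibroblast product in skin. It measured 97.2, 165, 118 and 110 CPM at day 4 and 90.3, 94.7, 123, 98.1 and 144 CPM at day 14 (log2 fold change -0.16 ± 0.17, adjusted p = 0.504). The days overlapped. In the model with the fibroblast marker level it was higher at day 14 (log2 fold change 0.60, adjusted p = 0.0281).

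Exons of 13 members overlap an exon annotated on the other strand, by more than 250 bases for Fbn1, Loxl2, Fn1 and Eln. The counts of these members may include reads of the partner gene.

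**Figure D2:**
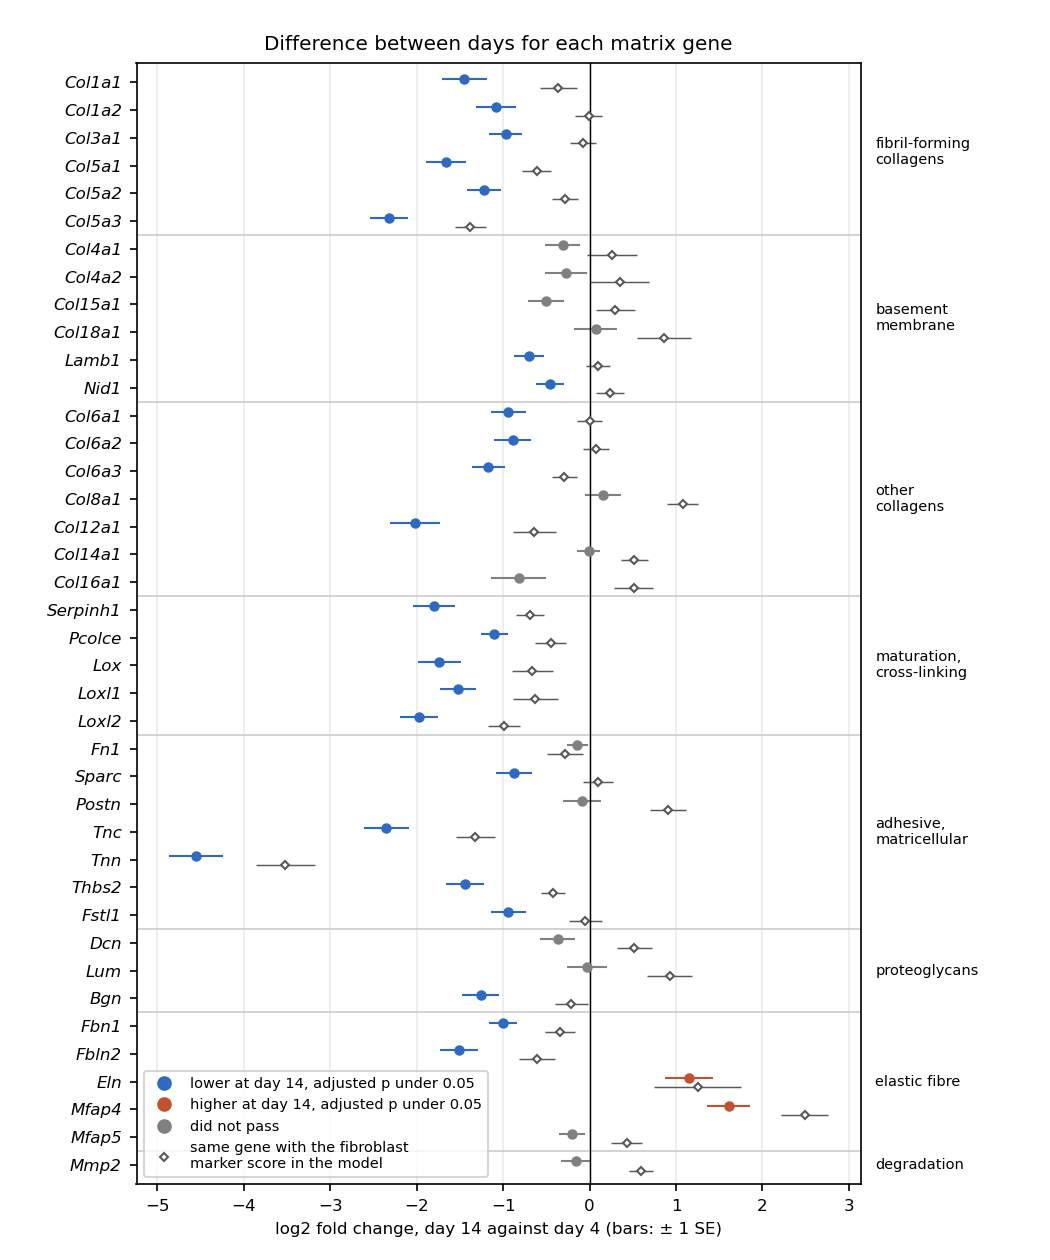
Log2 fold change of each matrix gene, day 14 against day 4, with bars of 1 SE. Filled points are the edgeR estimates, coloured by call, and open diamonds are the estimates with the fibroblast marker score in the model. Tnn lies farthest to the left at -4.55, and the diamonds of most lower genes lie closer to 0.

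Compared per length, as CPM per kilobase of merged exons, Col3a1 had the highest mean level of the members at day 4, with 649. It was followed by Col1a1 with 503, Fn1 with 463, Sparc with 332 and Col1a2 with 249. At day 14 the order on the same scale was Fn1 with 421, Col3a1 with 331, Col1a1 with 184, Sparc with 182 and Col1a2 with 118. By these means Fn1 stood in the third place at day 4 and the first at day 14, while its own level was not called as different. Per length, the day 4 libraries of Fn1 overlapped those of Col1a1, and its day 14 libraries overlapped those of Col3a1. At the low end at day 14, Tnn had a mean of 0.339 CPM per kilobase. Col1a1 and Sparc, neighbours in the day 14 order, lay within the spread between libraries of each. Merged exons count every annotated exon of a gene, so the order depends on the annotation. Col1a2, with 12.426 kilobases, stood below Sparc, with 3.788, although its day 4 mean was 3099 CPM beside 1259 CPM.

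Ratios of counts per kilobase between pairs of members were taken within each library, since the scaling of a library cancels in them. The 9 pairs were chosen after the values were seen, so the ratios are described without a test. The height of a ratio depends on the merged exon lengths, while its fold difference between days does not. Merged exons span 6.563 kilobases for Col1a1 and 12.426 for Col1a2, and the day 4 means were 3303 and 3099 CPM. The ratios are therefore no measure of the chain make-up of a collagen. Col1a1 to Col1a2 was 2.06 ± 0.202 at day 4 and 1.53 ± 0.191 at day 14 (mean ± SD). Col3a1 to Col1a1 was 1.28 ± 0.0679 at day 4 and 1.89 ± 0.307 at day 14. In neither of these did the libraries of the days overlap, whereas Col3a1 to Col1a2 overlapped, at 2.64 ± 0.13 and 2.84 ± 0.17. Relative to both Col1a2 and Col3a1, Col1a1 was thus lower in the day 14 libraries.

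For type V collagen, the ratio of Col5a1 to Col5a2 was 1.14 ± 0.0548 and 0.827 ± 0.109, without overlap. The chain pairs Col4a1 to Col4a2, at 1.61 ± 0.0607 and 1.59 ± 0.104, and Col6a1 to Col6a2, at 2.04 ± 0.0582 and 2 ± 0.107, overlapped between days. Dcn to Lum was 1.3 ± 0.125 at day 4 and 1.01 ± 0.0614 at day 14. Eln to Fbn1 was 0.133 ± 0.0754 and 0.545 ± 0.115. Tnc to Postn was 0.612 ± 0.105 and 0.123 ± 0.0296. The libraries of the days were separate in these last 3 ratios.

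**Figure D3:**
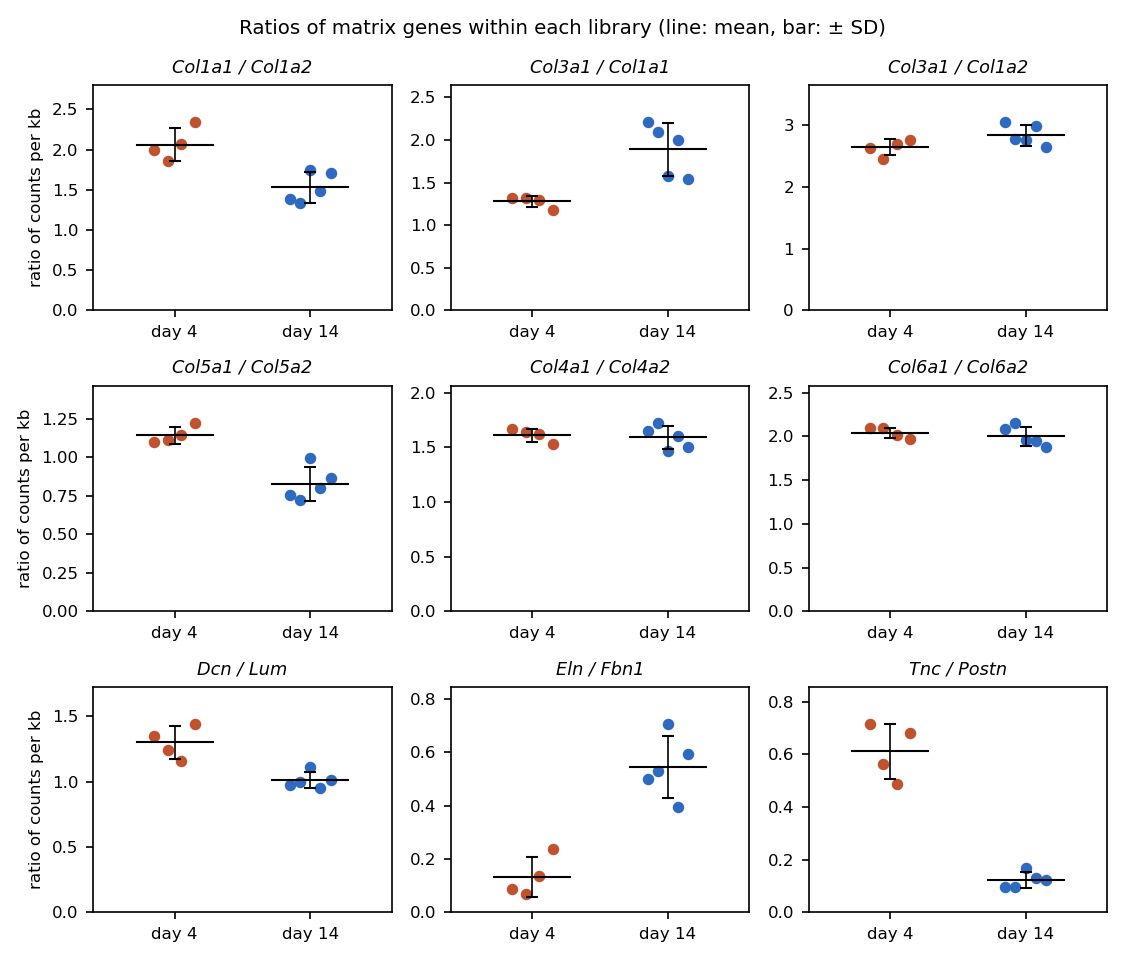
Ratio of counts per kilobase of merged exons between 9 pairs of matrix genes, with a point per library, a line at the mean and a bar of 1 SD on either side. The means of Eln to Fbn1 are 0.133 and 0.545 and those of Tnc to Postn 0.612 and 0.123, while those of Col4a1 to Col4a2 are 1.61 and 1.59.

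Library by library, the 37 members measured in all 9 libraries took 2.31, 3.49, 2.58 and 2.1% of the counts at day 4 and 1.26, 1.29, 1.7, 1.43 and 1.9% at day 14. Day 4 replicate 2 was the highest library of its day for 38 of 40 members (95.0%) and for 31.8% of all genes tested, and the exceptions were Fn1 and Eln. In day 14, replicate 5 was the highest for 24 of 37 members (64.9%) and 15.2% of all genes, and replicate 3 for 12 members (32.4%) and 28.8% of all genes. Without day 4 replicate 2, 24 members were lower (15.5% of all genes) and 2 were higher (16.7% of all genes), again Eln and Mfap4, and the members' log2 fold changes were higher by a median of 0.21 than with all libraries.

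The 25 fibroblast markers outside the set had a median log2 fold change of -0.68. Summed over the markers measured in all 9 libraries, their level ran from 5154 to 6196 CPM at day 4 and from 4401 to 5371 CPM at day 14. Vim and S100a4, which macrophages also express, made up most of that sum. Without these 2 the range was 970 to 1529 CPM at day 4 and 572 to 765 CPM at day 14, a split made after seeing the data. None of the 25 was at 0 in every library. Pdgfra had a log2 fold change of -1.46 (adjusted p = 0.000868), Ly6a of -1.78, Pdpn of -1.36 and Cd248 of -1.13. Meox1 was the marker that was higher, from 0.504 ± 0.11 to 1.46 ± 0.672 CPM. Not called were 10 markers, among them Dpt (98.1 and 117 CPM at day 4 and day 14), Dpp4 (42.6 and 43.3), Fap (10.9 and 11.1) and Pi16 (38.1 and 33.9). The markers' mean log2 CPM in the 9 libraries, from the 22 markers that all libraries measured, was 5.2, 5.8, 5.32 and 5.16 at day 4 and 4.53, 4.58, 4.88, 4.67 and 5 at day 14. Ranked by this score, the 9 libraries stood in the same order as ranked by the summed share of the members without Fn1.

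**Figure D4:**
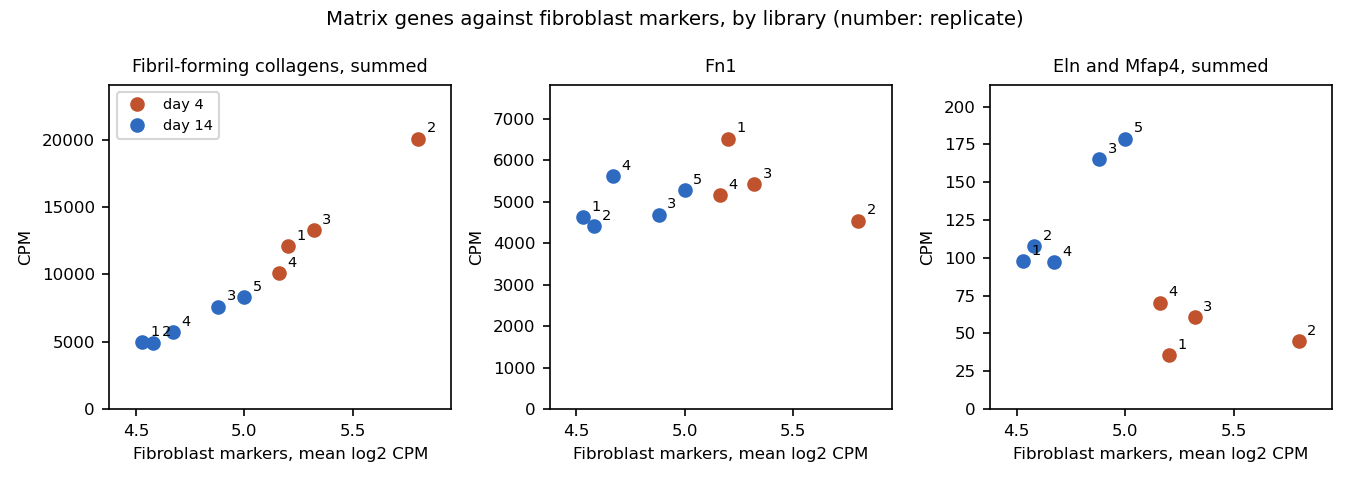
Summed CPM of the 6 fibril-forming collagens (left), CPM of Fn1 (middle) and summed CPM of Eln and Mfap4 (right) against the mean log2 CPM of 22 fibroblast markers, with a point per library and the replicate number beside it. The collagen sum runs from 4940 to 20096 CPM along the marker axis, Fn1 has no such order, and Eln with Mfap4 is higher in the day 14 libraries.

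The members lower in the same edgeR model with that score as a covariate were Tnn, Tnc, Col5a3, Loxl2 and Serpinh1, and all 5 were among the 25 lower without it. Loxl2 had a log2 fold change of -0.99 (adjusted p = 0.0104) and Serpinh1 of -0.69 (adjusted p = 0.0299). Higher were Mfap4, Postn, Mmp2 and Col8a1, the last with a log2 fold change of 1.08 (adjusted p = 0.00494). The median over the 40 members was -0.03, with 22 below 0 and 18 above, and the median SE was 0.19 beside 0.21 without the score. Col1a1 had a log2 fold change of -0.36 (adjusted p = 0.36) and Col3a1 of -0.07 (adjusted p = 0.837). The score itself differed between the days without overlap, so its part in the members' difference and that of the day cannot be told apart. Macrophage markers measured in all 9 libraries summed to 23489 to 27336 CPM at day 4 and 26325 to 28842 CPM at day 14. Of 16 macrophage markers tested, 4 were higher and 7 lower, beside 16.1% and 14.9% of all genes.

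The enzymes that make and modify collagen were mostly lower too. Of 24 genes tested, 18 were lower and 1 was higher, with a median log2 fold change of -0.74, beside 14.9% lower, 16.1% higher and a median of 0.01 over all genes. Means of list genes are given ± SD, with n = 4 at day 4 and n = 5 at day 14 (n = 4 for genes beyond the break). Adamts14, which removes the amino-terminal propeptide of procollagen, fell 8.4-fold, from 12 ± 3.76 to 1.44 ± 0.308 CPM (log2 change of -3.07 ± 0.23 with adjusted p = 2.54e-06). P4ha2, a prolyl hydroxylase subunit, went from 44.6 ± 10.1 to 9.94 ± 1.6 CPM (log2 change of -2.17 ± 0.16 with adjusted p = 2.64e-06). P4hb, the partner subunit and the gene of the list with the highest CPM, went from 882 ± 90.9 to 548 ± 53.4 CPM (log2 change of -0.69 ± 0.10 with adjusted p = 0.000337). The gene that rose was Leprel1, a prolyl 3-hydroxylase, from 1.31 ± 0.742 to 9.33 ± 1.72 CPM (log2 change of 2.76 ± 0.32 with adjusted p = 7e-05).

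Of 22 matrix proteases and inhibitors tested outside the set, 8 were lower and 4 higher (median log2 fold change -0.32), beside 14.9% and 16.1% of all genes. Ctsk, cathepsin K, a collagen-degrading protease of osteoclasts and some macrophages, fell from 473 ± 129 to 70.6 ± 10 CPM (log2 change of -2.74 ± 0.17 with adjusted p = 6e-07). Mmp14, a membrane-bound collagenase, fell from 365 ± 41.3 to 110 ± 21.7 CPM (log2 change of -1.73 ± 0.14 with adjusted p = 4.59e-06). Ctsl, cathepsin L, fell from 2091 ± 230 to 936 ± 86.4 CPM (log2 change of -1.16 ± 0.10 with adjusted p = 8.9e-06). Mmp19 had the highest CPM of the list at day 14 and rose from 1394 ± 353 to 2300 ± 538 CPM (log2 change of 0.72 ± 0.19 with adjusted p = 0.0141), and Mmp12, Mmp25 and Timp3 rose with it.

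Among 27 receptors that bind or take up matrix, 13 were lower and 7 higher (median log2 fold change -0.25). Mrc1, the mannose receptor, which takes up collagen fragments, rose from 2787 ± 213 to 4849 ± 443 CPM (log2 change of 0.80 ± 0.10 with adjusted p = 9.99e-05). Itga6, a laminin-binding integrin subunit, fell from 105 ± 9.18 to 37.7 ± 5.78 CPM (log2 change of -1.48 ± 0.11 with adjusted p = 3.3e-06), and Itgb3, a subunit of vitronectin receptors, fell from 30.1 ± 5.67 to 15.9 ± 1.92 CPM (log2 change of -0.92 ± 0.13 with adjusted p = 0.000297). Genes of this list passed in both directions, beside 14.9% lower, 16.1% higher and a median of 0.01 over all genes tested.

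Basement membrane genes outside the set gave 6 lower and 2 higher of 15 tested (median log2 fold change -0.59), beside 14.9% and 16.1% of all genes. Lamc1, a laminin chain gene, fell from 178 ± 13 to 82.5 ± 12.1 CPM (log2 change of -1.11 ± 0.11 with adjusted p = 2.07e-05), Lama4 had a log2 fold change of -0.99 and Col4a5 of -2.38. Of 49 other matrix glycoproteins and proteoglycans, 22 were lower and 9 higher (median -0.40). Thbs1, thrombospondin, had the highest CPM of this list and fell from 16526 ± 3685 to 7934 ± 2070 CPM (log2 change of -1.06 ± 0.19 with adjusted p = 0.00145). Vcan, the large proteoglycan versican, fell from 436 ± 42.8 to 137 ± 39.6 CPM (log2 change of -1.67 ± 0.19 with adjusted p = 5.71e-05). Efemp2 had a log2 fold change of -1.35 and the hyaluronan synthase Has1 of -1.17.

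Transforming growth factor beta is a main inducer of collagen genes in fibroblasts. Of 20 genes of its ligands, receptors and responses, 6 were lower and 2 higher (median log2 fold change -0.18), beside 14.9% and 16.1% of all genes. Lrrc32, which tethers the latent ligand to the cell surface, rose from 19.6 ± 4.26 to 59.5 ± 6.48 CPM (log2 change of 1.61 ± 0.14 with adjusted p = 7.85e-06), and Ldlrad4 had a log2 fold change of 0.58. Skil, with the highest CPM of this list, went from 550 ± 128 to 465 ± 38.1 CPM and was not called (log2 change of -0.24 ± 0.14 with adjusted p = 0.206).

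**Figure D5:**
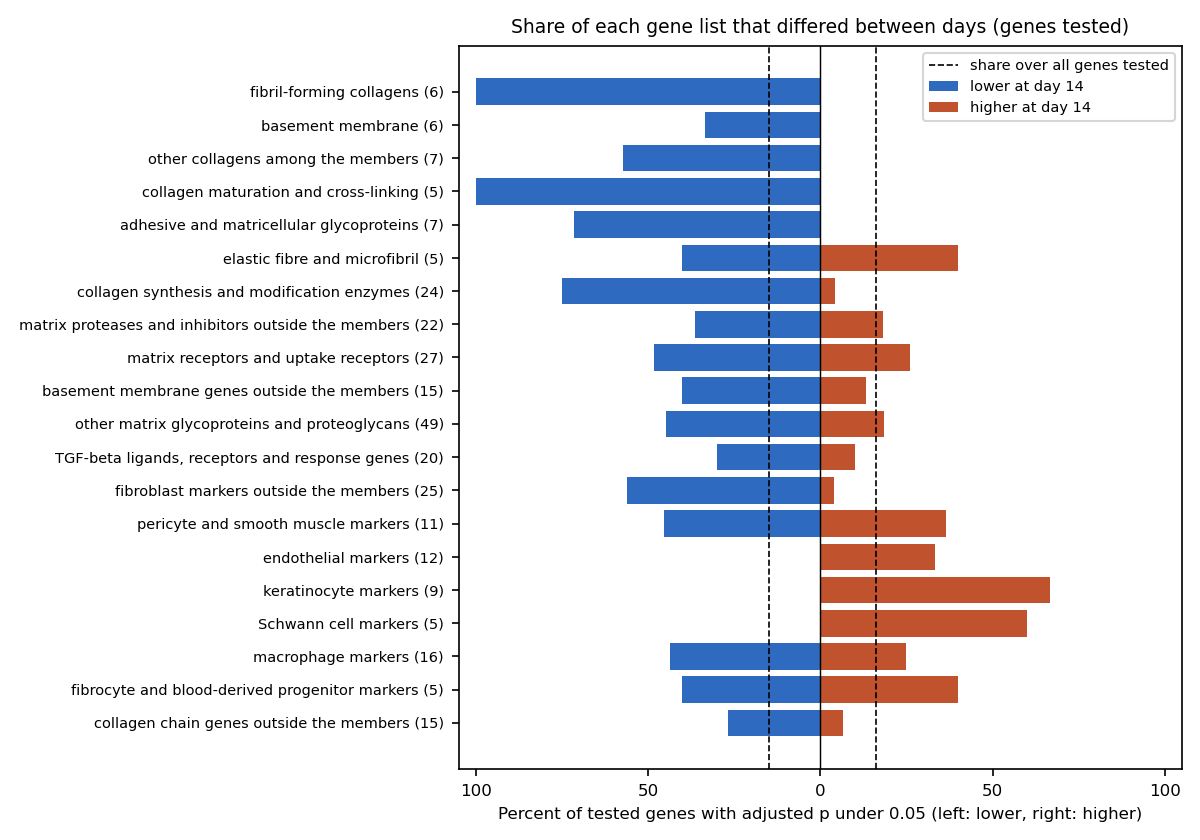
Percent of the tested genes of each list that were lower (left, blue) or higher (right, red) at day 14, for lists with at least 5 genes tested, whose number is in parentheses. Dashed lines mark the shares over all genes, 14.9% lower and 16.1% higher, and the fibril-forming collagens and the maturation genes reach 100% on the lower side.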

How the data were processed

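RNA-seq was read in 9 libraries of sorted wound macrophages. The authors deposited estimated counts per gene symbol, not normalized; a mean of 17.2% of values per library are not whole, and they were rounded here. A table of normalized values that the authors deposited was not used. The build is mm10 and the tools named are HISAT2 2.1.0, SAMtools 1.4, CASAVA 1.8, DESeq2 and Partek 6.6, per the submitters' processing notes. Their roles, the annotation and any filters are not given in the sources used here. Per the labels' protocols, libraries were made with the Illumina TruSeq RNA kit v2, which does not mark strand.

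Genes up to the break in day 14 replicate 5 were fitted on 9 libraries and those beyond it on 8, with shared library sizes and TMM factors from the genes up to the break. CPM use the total count of those genes. Summed levels of lists leave out the genes beyond the break. Tests used edgeR 4.0.16 in R 4.3.3 (filterByExpr, glmQLFit with robust dispersion, glmQLFTest, two-sided), with Benjamini-Hochberg adjustment over 13322 genes and a threshold of 0.05. The SE is the absolute log2 fold change divided by the square root of F. Alternatives were other scalings, filters and dispersions, DESeq2 1.42.0, limma 3.58.1 (voom), 2 covariates, other sets of libraries and leaving out each library. No pair of replicates agreed within counting error: chi-square divided by its degrees of freedom was 11.6 to 79.3.

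By symbol, 17102 genes matched RefSeq GRCm38.p6, 1098 by an older name and 103 did not. Exon lengths came from GENCODE M21. The members and lists were chosen with earlier results of these data known. All members are named with values per library; each other list is represented by the most abundant gene and by the 3 called genes of lowest p, and by genes behind a count of 5 or fewer. Some genes that this rule names are not reported here. Pdgfra, the fibroblast markers named as not called, and Col6a5 and Col6a6 were added after their values were seen. Programs were tested on simulated data.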

Additional observations from a re-analysis of the deposited data

Results flagged for a closer look

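In each day, the highest or lowest library of each member was compared with the range of its group, and 5 of 80 groups held a library set apart by Dixon's test at the 95% level, which chance gives in about 1 in 20 groups. Day 4 replicate 2 was high for Dcn, with 624 CPM where the other 3 libraries lay between 294 and 341, for Bgn, with 606 CPM beside 302 to 339, and for Fbln2, with 257 CPM beside 160 to 172. Day 14 replicate 3 was high for Bgn, with 196 CPM beside 151 to 158 in the other 3 libraries. Day 14 replicate 5 was high for Postn, with 688 CPM beside 501 to 554. The number flagged was near that chance share, and the groups share libraries, so no pattern is read from the flags. Day 4 replicate 2 and day 14 replicate 5 had the highest fibroblast marker score of their day, and day 14 replicate 3 the next highest. Whether the flags relate to the score was not tested. Without day 4 replicate 2, Dcn was still not called, and Bgn and Fbln2 were still called lower.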

How the results depend on the processing

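Under 21 alternatives, the members' estimates kept their direction and their side of the threshold 776 times, kept the direction but lost the call 28 times, kept it and gained a call 8 times, and changed sign 28 times, with or without a change of call. With the fibroblast marker score as a covariate, 5 members were lower and 4 higher, and over all genes 310 were lower and 468 higher. In that model the log2 fold change turned positive for Col4a1 (0.26), Col4a2 (0.35), Col15a1 (0.30), Lamb1 (0.10), Nid1 (0.24), Col6a2 (0.07), Col14a1 (0.52), Col16a1 (0.51), Sparc (0.10), Postn (0.91), Dcn (0.52), Lum (0.93), Mfap5 (0.43) and Mmp2 (0.60). Of these, Lamb1, Nid1, Col6a2 and Sparc also lost their call, and Postn and Mmp2 gained one. Under the other 20 alternatives 21 to 27 members were lower and 2 higher. The 6 shallowest libraries alone kept every member's call, while 1044 genes were lower and 1031 higher in the whole table, with fewer libraries in the fit.

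Leaving out each library in turn gave 24 to 27 members lower and 2 higher, and 1442 to 2366 genes lower and 1595 to 2456 higher. The sign changed with a library left out for 7 members that were not called, whose log2 fold changes ran from -0.17 to 0.21 (Col18a1), from -0.03 to 0.35 (Col8a1), from -0.11 to 0.12 (Col14a1), from -0.27 to 0.23 (Postn), from -0.20 to 0.31 (Lum), from -0.33 to 0.00 (Mfap5) and from -0.27 to 0.02 (Mmp2). It also changed with library size as a covariate for Col18a1 (-0.03) and Col8a1 (-0.08), with upper-quartile scaling for Col14a1 (0.02) and with limma-voom for Lum (0.04). The cause was not tested. Fitting all genes on 9 libraries left 21 members lower, since Col12a1, Loxl1 and Bgn have no counts in the truncated library, and Nid1 was lost too. No paired analysis was possible because the labels give the days no shared replicate numbers.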

Other observations

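Collagen chain genes outside the set were scarce in these libraries. Of 25 in the table, 15 could be tested, and 4 were lower and 1 higher (median log2 fold change -0.13), beside 14.9% and 16.1% of all genes. Without the genes beyond the break, their summed level ran from 26.2 to 44.3 CPM at day 4 and from 15.9 to 39.1 CPM at day 14. Among those left out, Col4a5, Col6a5, Col6a6 and Col7a1 had means of 3.2, 4.38, 7.19 and 8.75 CPM at day 4. At day 14 their means were 0.623, 5.25, 10.5 and 2.95 CPM. Col24a1, a fibrillar collagen, went from 4.09 ± 2.43 to 0.28 ± 0.135 CPM (log2 change of -3.98 ± 0.50 with adjusted p = 0.000117), and Col4a5, Col7a1 and Col27a1 were the other lower genes. Col28a1, a collagen known from Schwann cells and peripheral nerve, rose from 0.377 ± 0.165 to 3.19 ± 1.58 CPM (log2 change of 3.0 ± 0.43 with adjusted p = 0.000281).

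Markers of other skin cells did not all follow the fibroblast markers. The counts below stand beside 14.9% lower and 16.1% higher over all genes tested. Keratinocyte markers were higher for 6 of 9 tested and lower for none (median log2 fold change 2.25), at summed levels of 10.1 to 14.8 CPM at day 4 and 12.9 to 27.1 CPM at day 14. Endothelial markers were higher for 4 of 12 (Tek, Cldn5, Emcn and Flt1) and lower for none (median 0.73). Their summed levels overlapped, at 56.5 to 63.1 CPM at day 4 and 47 to 106 CPM at day 14. Pecam1, the endothelial marker with the highest CPM, had means of 23.9 ± 2.05 and 21 ± 4.56 CPM and was not called. Pericyte and smooth muscle markers split, with 4 higher and 5 lower of 11 (median 0.33): Rgs5, a pericyte gene, rose from 0.967 ± 0.392 to 12.4 ± 3.37 CPM (log2 change of 3.76 ± 0.30 with adjusted p = 3.88e-06), while Acta2, the actin of smooth muscle and myofibroblasts, fell from 58.9 ± 23.9 to 8.42 ± 5.43 CPM (log2 change of -2.81 ± 0.42 with adjusted p = 0.000939). Of 5 markers of fibrocytes, blood-derived cells that can make collagen, Ptprc and Ccr7 were higher and Cd34 and Cxcr4 lower (median 0.10). The adipocyte list had 1 gene tested, Pparg, which macrophages also express, and it was higher (log2 change of 0.96 ± 0.15 with adjusted p = 0.000437).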
